A study of Mus musculus with 8 samples.

Results

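A set of 7 receptors and adhesion molecules that place blood stem and progenitor cells in the bone marrow were followed in mouse progenitors after interferon-alpha (IFNα). They are Cxcr4, Itga4, Itgb1, Cd44, Vcam1, S1pr1 and Ccr2, taken by symbol from the gene table, and they make up 7 of the 27998 genes measured. All 7 were detected and all 7 passed the filter on low counts in the sums over all cells. Their levels were read in 10046 kept cells of 16 mice.

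The mice were wildtype and 12 to 14 weeks old. Treated mice were given IFNα under the skin, at 50000 IU for each 20 g of body weight, and were sampled 3, 24 or 72 h later, and control mice received 100 µl of PBS. Bone marrow was sorted for LK cells (lineage-negative and cKit+), which hold most myeloid, erythroid and megakaryocyte progenitors, and further LK CD150+ CD48- CD34- cells, a gate for hematopoietic stem cells (HSCs), were added, so that class shares depend in part on the sort. Each time point was 1 droplet library that pooled 4 mice marked by hashtag antibodies. The mouse was the replicate, and time point and library cannot be told apart. All comparisons with control drew on the same 4 control mice. Tests within classes and clusters used those with at least 10 cells there. The exception was values with clusters in equal weights, which took mice with at least 3 cells in each cluster. Values with fixed class shares left out control mouse 4, and the shares were of control UMIs rather than of cells. These values pooled all cells outside the 6 named classes as 1 further class, whose mix was not held fixed.

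Stem and progenitor cells are held in the marrow by a few well-studied contacts. CXCR4 is the receptor for CXCL12, which stromal cells of the marrow make. Integrin α4 (Itga4) and integrin β1 (Itgb1) pair to form VLA-4, which binds VCAM-1 and fibronectin. CD44 binds hyaluronan and selectins. S1PR1 senses sphingosine-1-phosphate, which is high in blood, and guides exit from tissues, and CCR2 is the receptor through which monocytes leave the marrow toward CCL2. VCAM-1 is best known on stromal and endothelial cells and macrophages, and it is also carried by some blood progenitors.

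Kept cells numbered 58 to 1240 per mouse, with 1102706 to 26446327 unique molecular identifiers (UMIs, each counting 1 captured RNA molecule) per mouse. A typical kept cell held 12017 UMIs (median) in the 3 h library and 14763 in the 72 h library, below the 18964.5 of the control and 18953.5 of the 24 h library. Control mouse 4 stood apart with 58 cells. Libraries shared 9 to 69 cell barcodes, and at most 1 of them was kept in both libraries of a pair. CPM is a gene's share of all UMIs of the mouse. The sums in this paragraph are unscaled, and levels of single genes below are after trimmed-mean (TMM) scaling. The summed level of 8 interferon-response genes was 46.7 to 58.3 CPM in control mice 1 to 3 and 147 CPM in control mouse 4. It was 3024 to 3645 CPM at 3 h, 238 to 268 CPM at 24 h and 49.6 to 56.8 CPM at 72 h. Macrophage markers summed to 1.84 to 6.54 CPM over all mice. Stromal markers summed to 8.77 to 18.9 CPM and endothelial markers to 7.98 to 12.1 CPM. In control the stromal markers had 308 UMIs of Pdgfrb, 275 of Lepr, 66 of Col1a2, 2 of Col1a1 and 1 of Adipoq. Col3a1, Lum and Pdgfra had 0. Handling and early-response genes summed to 1500 to 2341 CPM in control, 1282 to 1527 at 3 h, 1417 to 1567 at 24 h and 1445 to 2215 at 72 h, with the heat-shock pair Hspa1a and Hspa1b, picked after its values were seen, at 15.8 to 113 CPM in control, 2.34 to 7.14 at 3 h, 0.378 to 29.1 at 24 h and 0.533 to 33.3 at 72 h. The part of these genes in the results was not tested.

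Across all LK cells, Cxcr4, Cd44, Vcam1 and Ccr2 were lower after IFNα, and Itgb1 was higher, at all 3 times. Itga4 and S1pr1 were higher at 24 and 72 h and did not pass the test at 3 h. In the quasi-likelihood test of edgeR, with p adjusted over all genes (Benjamini-Hochberg), 5 of 7 members passed at 3 h, against 38.8% of the 12042 genes tested. At 24 and 72 h all 7 passed, against 28.3% and 37.4% of genes. Vcam1 alone also changed by over 2-fold, where 6.9%, 2.22% and 2.86% of genes did so at 3, 24 and 72 h. From 3 to 24 h, 2 members passed (28.5% of genes), and from 24 to 72 h, 2 passed (9.08% of genes). Of all genes at 3 h, 2368 were higher and 2307 lower, and scaling by library size alone gave 1591 higher and 4632 lower, with the median of all genes at -0.18 on the log2 scale. In these sums, fewer cells of a type and less RNA per cell cannot be told apart.

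**Figure D1:**
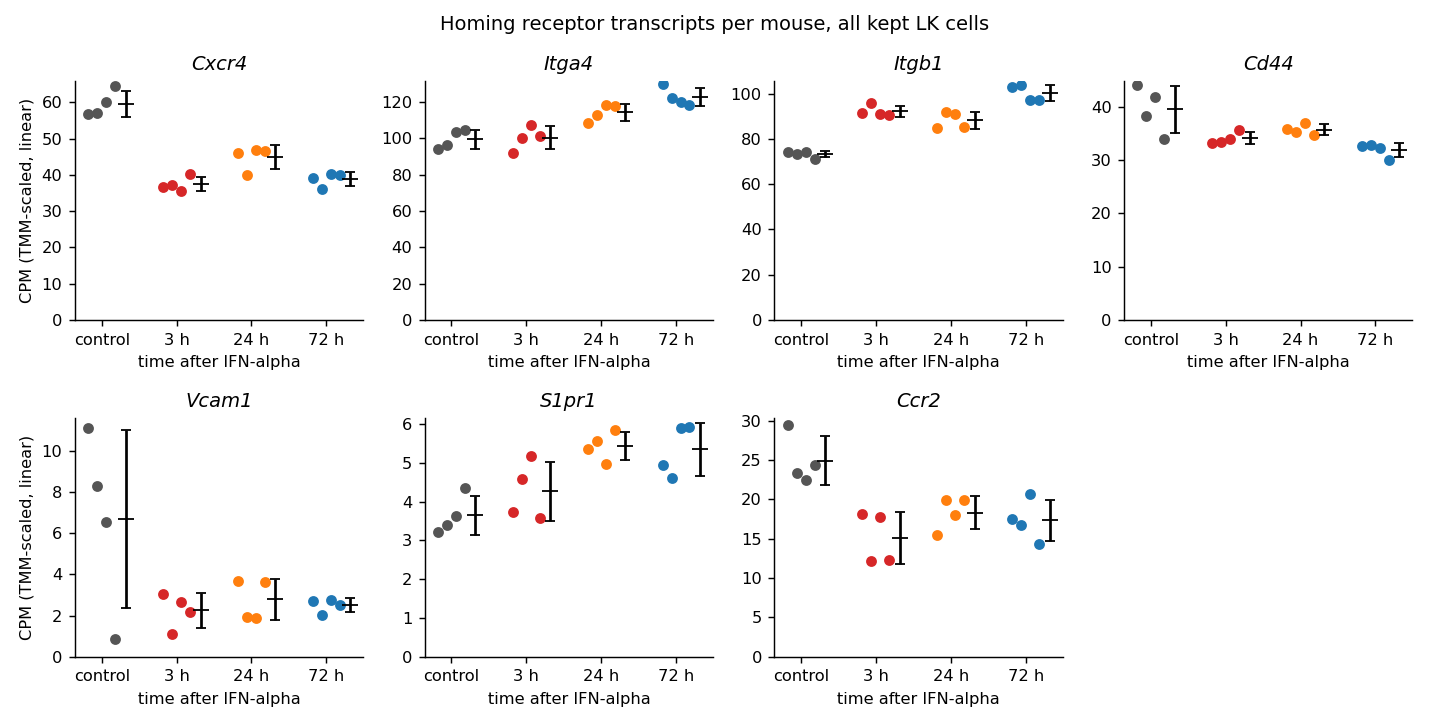
Level of each member in all kept LK cells of each mouse (vertical axis, CPM after TMM scaling) against time after IFNα (horizontal axis), 1 point per mouse with the mean and SD of 4 mice. Cxcr4 lay between 56.8 and 64.4 CPM in control and between 35.7 and 40.2 CPM at 3 h, and Itgb1 rose from 71.3 to 74.3 CPM in control to 97.1 to 103.9 CPM at 72 h.

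Cxcr4, the CXCL12 receptor, was at 56.8, 56.9, 60.0 and 64.4 CPM in the control mice. It was at 36.8, 37.3, 35.7 and 40.2 CPM at 3 h, at 45.97, 39.99, 46.72 and 46.69 CPM at 24 h, and at 39.17, 36.02, 40.13 and 40.04 CPM at 72 h. No treated mouse reached the lowest control mouse. Relative to control the log2 fold changes were -0.64 ± 0.07 (SE, edgeR adjusted p = 4.8e-08) at 3 h, -0.38 ± 0.06 (adjusted p = 2.5e-05) at 24 h and -0.58 ± 0.06 (adjusted p = 1.3e-07) at 72 h. The level rose from 3 to 24 h by 0.26 (edgeR adjusted p = 0.0041) and fell again from 24 to 72 h by 0.20 (adjusted p = 0.032). The falls against control passed in all 16 fits that left out 1 mouse. The step from 24 to 72 h did not pass in 5 of them, without 24 h mouse 1, 3 or 4 or 72 h mouse 1 or 2 (edgeR adjusted p = 0.073, 0.091, 0.11, 0.077 and 0.11). Holding class shares at their control values gave log2 ratios of -0.62, -0.29 and -0.43 for Cxcr4 (exact permutation p = 0.029 each). The observed shares gave -0.77, -0.38 and -0.59.

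Within classes of progenitors, the clearest Cxcr4 change was in monocyte progenitor-like cells. Their 3 control mice with at least 10 such cells were at 80.1, 88.3 and 77.7 CPM, and the 3 h mice were at 48.0, 52.2, 48.2 and 37.5 CPM. At 24 h they were at 61.7, 60.0, 65.3 and 73.3 CPM and at 72 h at 66.0, 70.9, 60.7 and 65.2 CPM. The groups did not overlap at any time. The log2 fold change was -0.84 ± 0.12 at 3 h (edgeR adjusted p = 2.4e-06) and -0.33 ± 0.09 at 24 h (adjusted p = 0.016), and at 72 h it was -0.32 ± 0.10 with an adjusted p of 0.061. The level was higher at 24 h than at 3 h by 0.50 (edgeR adjusted p = 0.003), a step that 16.6% of genes tested in this class passed. Thinning each cell to 5000 UMIs left the 3 h value at -0.72 with an edgeR adjusted p of 0.094. The 24 h call was lost without control mouse 2 (-0.28, edgeR adjusted p = 0.14) and without 24 h mouse 2 (-0.28, adjusted p = 0.1).

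Cxcr4 also fell in neutrophil progenitor-like cells, by 0.41, 0.26 and 0.40 on the log2 scale at 3, 24 and 72 h (edgeR adjusted p = 0.025, 0.046 and 0.007). The 24 h call was lost in 9 of 16 fits that left out a mouse, and the 3 h call without 3 h mouse 1, 3 or 4 (edgeR adjusted p = 0.058, 0.13 and 0.1). With thinned cells none of the 3 calls passed (edgeR adjusted p = 0.47, 0.81 and 0.11). In LMPP-like cells (lymphoid-primed multipotent progenitors) it fell by 0.40 at 3 h (edgeR adjusted p = 0.017, and 0.22 with thinned cells) and by 0.34 at 72 h (adjusted p = 0.038, lost in 6 of 16 such fits), and was -0.11 at 24 h (adjusted p = 0.59). HSC-like cells were at 50.6, 22.6 and 44.2 CPM in 3 control mice, a wide spread that the treated mice overlapped. Their log2 fold changes were -0.76, -0.88 and -0.80, of which the 24 h value passed (edgeR adjusted p = 0.046) and was lost in 8 of 15 fits that left out a mouse, with -0.63 and an adjusted p of 0.44 without control mouse 1. In erythroid and megakaryocyte (MK) progenitor-like cells the values lay between -0.32 and 0.01, and none passed. By cluster, Cxcr4 was negative in 9 of 10 tested at 3 h, 10 of 12 at 24 h and 11 of 12 at 72 h. It passed as lower in 1, 2 and 0 of them. These were the monocyte progenitor-like cluster at 3 and 24 h (17.4% and 7.25% of genes) and the HSC-like cluster at 24 h (2.59%). No neutrophil progenitor-like or LMPP-like cluster passed alone.

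Cxcr4 and the members described next are shown with the DNA around their start sites, because Cxcr4 fell and Itgb1 rose at every time in every fit that left out a mouse, and Ccr2 gave the largest fall within a class. By GENCODE vM21 on GRCm38, the genes lie at chr1:128588199-128592293 (Cxcr4, minus strand), chr2:79255426-79333123 (Itga4, plus), chr8:128685654-128733200 (Itgb1, plus), chr2:102811141-102901665 (Cd44, minus), chr3:116109949-116129688 (Vcam1, minus), chr3:115710433-115715072 (S1pr1, minus) and chr9:124101950-124113557 (Ccr2, plus). The sequences are RefSeq promoters on GRCm38.p6, from 250 bases before to 50 bases after the start site, and 5 of 7 members had one. Capitals mark matches on either strand to GAAANNGAA (the core of the interferon-stimulated response element), TTCNNNGAA (the GAS element), TATAAA (the TATA box), GGGCGG (the GC box) and GCGCATGC (an NRF1 core). Cxcr4 is at chr1:128592250-128592549 on the minus strand, Itgb1 at chr8:128685404-128685703 on the plus strand and Ccr2 at chr9:124101933-124102232 on the plus strand.
Cxcr4: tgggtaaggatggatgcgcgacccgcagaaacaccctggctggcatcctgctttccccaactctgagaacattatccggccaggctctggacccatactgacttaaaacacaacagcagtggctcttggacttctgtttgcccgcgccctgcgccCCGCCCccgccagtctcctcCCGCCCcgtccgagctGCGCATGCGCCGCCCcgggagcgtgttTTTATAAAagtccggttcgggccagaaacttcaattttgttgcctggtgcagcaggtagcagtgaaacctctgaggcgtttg
Itgb1: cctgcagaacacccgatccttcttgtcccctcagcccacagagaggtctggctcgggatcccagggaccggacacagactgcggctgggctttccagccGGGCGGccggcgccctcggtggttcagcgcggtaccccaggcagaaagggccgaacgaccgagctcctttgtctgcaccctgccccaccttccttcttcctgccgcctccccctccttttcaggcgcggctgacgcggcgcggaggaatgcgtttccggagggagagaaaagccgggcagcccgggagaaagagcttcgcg
Ccr2: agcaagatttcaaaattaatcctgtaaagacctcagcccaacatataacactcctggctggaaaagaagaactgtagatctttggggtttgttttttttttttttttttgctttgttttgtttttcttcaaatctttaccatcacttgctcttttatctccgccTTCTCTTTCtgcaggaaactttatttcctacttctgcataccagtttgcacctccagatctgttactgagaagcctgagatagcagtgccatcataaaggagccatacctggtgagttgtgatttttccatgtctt
The Cxcr4 window held 3 GC boxes, TATAAA on both strands 32 and 30 bases before the start and the NRF1 core, which reads on both strands and runs into the nearest GC box. Itgb1 held 1 GC box and no TATA box. Ccr2 held the only GAAANNGAA among the 5, on the reverse strand 86 bases before the start. Of 32851 promoters of this length, 8.56% held GAAANNGAA, 8.30% TTCNNNGAA, 13.6% TATAAA, 35.7% GGGCGG and 2.71% GCGCATGC. CACCC, also searched on both strands and not in capitals, was in 3 of the 5 windows and in 57.5% of all promoters. TTCNNNGAA was in none of the 5 windows, which says only that these letters are not there. The share of G and C was 59.3% for Cxcr4, 67.3% for Itgb1 and 38% for Ccr2, beside a median of 52.7% over all promoters.

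Itgb1, the shared β chain of the VLA integrins, was at 74.1, 73.5, 74.3 and 71.3 CPM in control. It was at 91.2, 95.7, 91.1 and 90.8 CPM at 3 h, at 84.7, 91.9, 91.2 and 85.5 CPM at 24 h, and at 102.8, 103.9, 97.1 and 97.2 CPM at 72 h. Every treated mouse was above every control mouse. These were log2 fold changes of 0.32 ± 0.05, 0.26 ± 0.04 and 0.44 ± 0.04 at 3, 24 and 72 h (edgeR adjusted p = 5.3e-06, 7.1e-05 and 5e-08). The step from 24 to 72 h was 0.18 (edgeR adjusted p = 0.0047). Scaling by library size alone gave 0.17 at 3 h (edgeR adjusted p = 0.0047). Holding class shares at their control values gave log2 ratios of 0.12, 0.18 and 0.34 (exact permutation p = 0.029 each), beside 0.17, 0.24 and 0.43 with the observed shares. In LMPP-like cells Itgb1 was at 67.5, 70.6, 73.9 and 59.0 CPM in control and at 105, 107, 99.4 and 95.8 CPM at 72 h, with no overlap. The rises there were 0.37, 0.37 and 0.53 (edgeR adjusted p = 0.0013, 0.00056 and 5e-06), and each passed in all 16 fits that left out a mouse. With library size as the only scaling the 3 h value in LMPP-like cells was 0.22 with an edgeR adjusted p of 0.054, and with thinned cells the 24 and 72 h values had adjusted p of 0.061 and 0.058. MK progenitor-like cells passed at 3 h (0.41, edgeR adjusted p = 0.047, lost in 10 of 15 fits that left out a mouse) and at 72 h (0.57, adjusted p = 0.00095). Monocyte progenitor-like cells (0.39, edgeR adjusted p = 0.02) and neutrophil progenitor-like cells (0.33, adjusted p = 0.0093) passed at 72 h. The first of these was lost without control mouse 1 (edgeR adjusted p = 0.13) or 72 h mouse 3 (adjusted p = 0.14), and the second without 72 h mouse 2 (adjusted p = 0.058). HSC-like and erythroid progenitor-like values were positive at each time, 0.11 to 0.36, and did not pass.

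Itga4, the α chain of VLA-4, was at 94.0, 96.4, 103.4 and 104.4 CPM in control and at 92.1, 100.3, 107.6 and 101.1 CPM at 3 h, where the groups overlapped. It was at 108.3, 112.9, 118.6 and 117.7 CPM at 24 h and at 129.7, 122.1, 120.2 and 118.4 CPM at 72 h, above every control mouse. The change on the log2 scale was 0.03 ± 0.05 at 3 h (edgeR adjusted p = 0.67), 0.22 ± 0.05 at 24 h (adjusted p = 0.0021) and 0.32 ± 0.05 at 72 h (adjusted p = 3.4e-05). The 3 h value was -0.12 with library size as the only scaling (edgeR adjusted p = 0.069). With class shares held at their control values the log2 ratios for Itga4 were -0.20, 0.14 and 0.17 at 3, 24 and 72 h (exact permutation p = 0.057, 0.029 and 0.029, 3 control mice), beside -0.11, 0.21 and 0.31 with the observed shares. The pool whose mix was not held fixed included cluster 8, where Itga4 was high (next paragraph). Cluster 8 was on average 7.83% of kept cells in control and 9.20%, 6.13% and 9.84% at 3, 24 and 72 h. In HSC-like cells Itga4 was at 121, 119 and 140 CPM in control and at 213, 166, 168 and 158 CPM at 72 h. That rise of 0.49 ± 0.13 passed (edgeR adjusted p = 0.03), and was lost without control mouse 1, control mouse 2 or 72 h mouse 1 (adjusted p = 0.2, 0.13 and 0.22) and with library size as the only scaling. In monocyte progenitor-like cells the rises at 3 and 24 h (0.32 and 0.28, edgeR adjusted p = 0.044 and 0.049) were lost in 6 and 9 of 15 such fits.

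By cluster at 3 h, the Itga4 log2 fold change was negative in 6 of 10 clusters tested and positive in 4. It passed as lower in 3 clusters and as higher in 1. Cluster 8, which carried no class name and was led by Scin, Csrp3 and Gata2, was at 396, 297 and 346 CPM in control and at 221, 203, 251 and 270 CPM at 3 h. Cluster 7, led by mitosis genes such as Nusap1 and Mki67, was at 132, 128 and 141 CPM in control and at 70.4, 83.7, 92.8 and 84.8 CPM at 3 h. The groups did not overlap in either cluster, and the log2 fold changes were -0.55 ± 0.12 in cluster 8 (edgeR adjusted p = 0.00049, 14% of genes passing) and -0.66 ± 0.17 in cluster 7 (adjusted p = 0.005, 13% of genes). In cluster 6, 1 of the 2 LMPP-like clusters, Itga4 fell by 0.41 (edgeR adjusted p = 0.022, 16.1% of genes) with overlapping groups.

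Cd44, the hyaluronan receptor, was at 44.1, 38.2, 41.8 and 33.9 CPM in control. It was at 33.3, 33.4, 33.9 and 35.7 CPM at 3 h, at 35.8, 35.3, 37.0 and 34.6 CPM at 24 h and at 32.7, 32.8, 32.2 and 29.9 CPM at 72 h. Control mouse 4 lay among the treated mice at 3 h and below them at 24 h, and the groups were apart at 72 h. Cd44 changed by -0.27, -0.20 and -0.36 on the log2 scale at 3, 24 and 72 h (edgeR adjusted p = 0.0021, 0.0086 and 5.3e-05). Without control mouse 1 the 24 h value was -0.15 with an edgeR adjusted p of 0.067, and with thinned cells none of the 3 passed (adjusted p = 0.074, 0.21 and 0.075). With class shares held at their control values the 24 h ratio for Cd44 was -0.16 (exact permutation p = 0.11), beside -0.23 with the observed shares. In LMPP-like cells Cd44 fell by 0.37, 0.43 and 0.44 (edgeR adjusted p = 0.049, 0.0095 and 0.017), and without control mouse 1 these were -0.21, -0.27 and -0.28 with adjusted p of 0.32, 0.18 and 0.2. The 3 h call there was lost in 12 of 16 fits that left out a mouse, and the 72 h call also without 72 h mouse 4 (edgeR adjusted p = 0.057). Reads at the 3′ end do not separate the splice forms of Cd44.

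Vcam1, the ligand of VLA-4, was at 11.1, 8.29, 6.54 and 0.870 CPM in control. Control mouse 4 lay below every treated mouse, at a level read from 1 Vcam1 UMI. Treated mice were at 3.06, 1.09, 2.66 and 2.18 CPM at 3 h, at 3.67, 1.95, 1.88 and 3.61 CPM at 24 h and at 2.73, 2.02, 2.77 and 2.53 CPM at 72 h. Their log2 fold changes were -1.85 ± 0.32, -1.60 ± 0.23 and -1.71 ± 0.26 (edgeR adjusted p = 7.8e-05, 2.6e-05 and 3e-05). Of 484 control Vcam1 UMIs, 462 (95.5%) came from neutrophil progenitor-like cells. This class made up 18.1 to 20.3% of kept cells in control mice and 4.57 to 9.39%, 6.61 to 10.6% and 5.52 to 10.5% at 3, 24 and 72 h. It held 30.4% of control UMIs, the weight used for fixed shares. With class shares held at their control values, the log2 ratios for Vcam1 were -0.86, -0.72 and -0.68 (exact permutation p = 0.086, 0.086 and 0.029, 3 control mice without mouse 4), beside -2.09, -1.65 and -1.79 with the observed shares.

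Inside the neutrophil progenitor-like class, Vcam1 was at 36.1, 24.5, 20.0 and 3.15 CPM in control and at 23.1, 14.9, 11.4 and 19.0005 CPM at 24 h. Control mouse 4 had 11 cells and 1 Vcam1 UMI there. The 24 h value of -0.63 ± 0.19 passed (edgeR adjusted p = 0.031), and the 3 and 72 h values of -0.62 and -0.58 did not (adjusted p = 0.2 and 0.11). Without control mouse 1 the 24 h value was -0.32 with an edgeR adjusted p of 0.4, and the call was also lost without 24 h mouse 2 or 3 (adjusted p = 0.11 and 0.12). The class held 2 clusters. Cluster 9, with S100a8 and S100a9 among its leading genes, was 36.9% of the class in control and 16.2%, 20% and 17.9% at 3, 24 and 72 h, and its Vcam1 was at 87.5, 54.3 and 56.9 CPM in control and 40.4, 30.3, 62.3 and 48.2 CPM at 24 h. In cluster 2, led by Ly6c2, Elane and Mpo, Vcam1 was at 4.80, 6.63 and 2.93 CPM in control and at 17.9, 11.01, 2.09 and 12.5 CPM at 24 h. That rise of 1.17 ± 0.34 passed (edgeR adjusted p = 0.021, 9.29% of genes) with overlapping groups. In cluster 9, where Vcam1 was higher, the log2 fold change at 24 h was -0.61 and did not pass, also with overlapping groups. With both clusters in equal weights the log2 ratios of the class were 0.15, 0.0091 and 0.33 at 3, 24 and 72 h (exact permutation p = 0.83, 0.94 and 0.63, 4 control mice and 3, 4 and 4 treated mice). These ratios took mice with at least 3 cells in each cluster, and cluster 9 held only 17 cells in all at 3 h. They kept control mouse 4, and the equal-weight control mean was 27.1 ± 18.5 CPM (SD, n = 4). Ratios without this mouse were not computed, so the sign of the equal-weight values may rest on it.

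**Figure D2:**
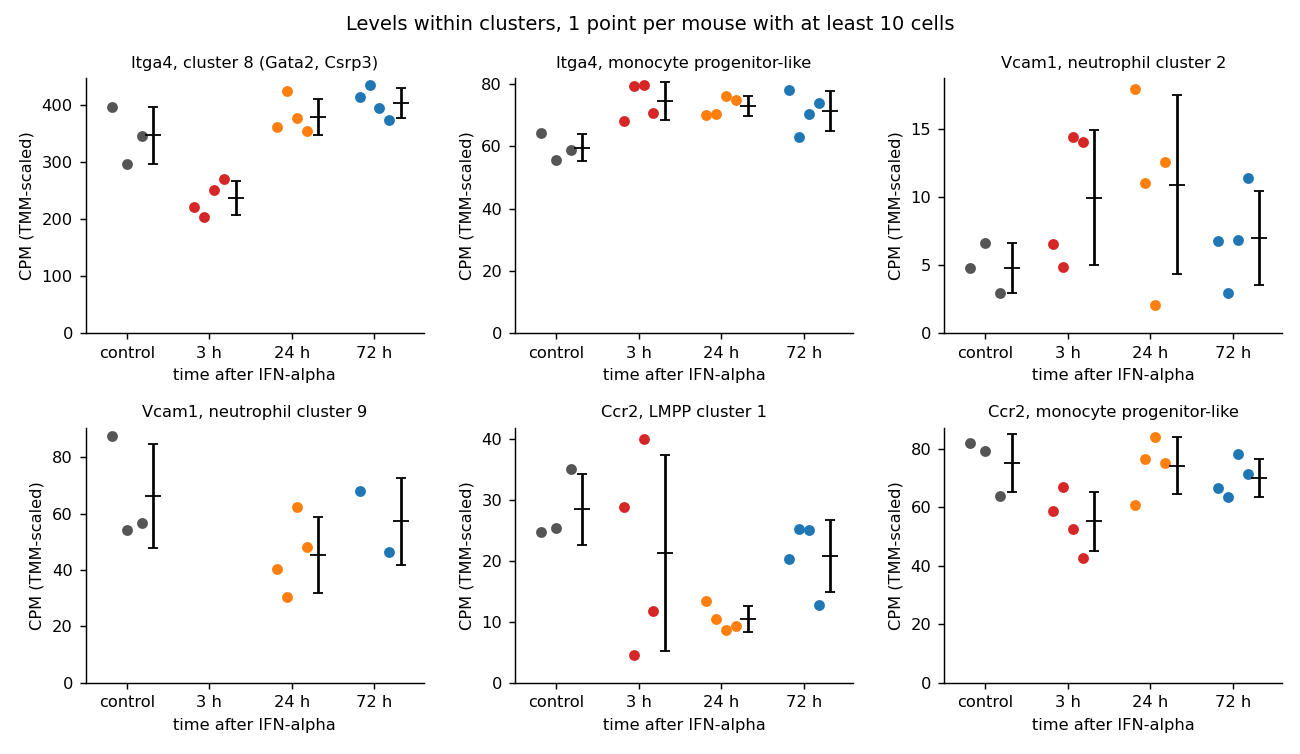
Levels of Itga4, Vcam1 and Ccr2 (vertical axes, CPM after TMM scaling) within chosen clusters and classes against time after IFNα, 1 point per mouse with at least 10 cells, with mean and SD. Itga4 in cluster 8 lay between 203 and 270 CPM at 3 h, below its 3 control mice, and Ccr2 in LMPP cluster 1 lay between 8.71 and 13.5 CPM at 24 h, below its 3 control mice.

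S1pr1, the egress receptor, was at 3.21, 3.41, 3.62 and 4.35 CPM in control. It was at 3.72, 4.58, 5.19 and 3.57 CPM at 3 h, at 5.36, 5.57, 4.97 and 5.84 CPM at 24 h and at 4.94, 4.60, 5.90 and 5.93 CPM at 72 h. The groups overlapped at 3 h and were apart later. In all LK cells the log2 fold changes were 0.34 ± 0.16 (edgeR adjusted p = 0.11), 0.67 ± 0.12 (adjusted p = 0.00034) and 0.64 ± 0.13 (adjusted p = 0.00075). With thinned cells the 24 and 72 h values were 0.27 and 0.40 with edgeR adjusted p of 0.45 and 0.2. With class shares held at their control values the log2 ratios for S1pr1 were -0.22, 0.39 and 0.22 at 3, 24 and 72 h (exact permutation p = 0.057, 0.057 and 0.11), beside 0.17, 0.66 and 0.63 with the observed shares. HSC-like cells were at 7.93, 20.6 and 14.2 CPM in control and did not pass at any time. In LMPP-like cells the rise of 1.04 ± 0.33 at 24 h (edgeR adjusted p = 0.045) was lost in 8 of 16 fits that left out a mouse, and control mouse 4 had no S1pr1 UMI there. Of 195 control S1pr1 UMIs, HSC-like and LMPP-like cells held 30 and 26. MK, erythroid, monocyte and neutrophil progenitor-like cells held 11, 30, 2 and 1. The others lay outside the named classes, in the pool whose mix was not held fixed, which held 14.2% of all control UMIs.

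Ccr2, the CCL2 receptor, was at 29.5, 23.4, 22.5 and 24.4 CPM in control. It was at 18.2, 12.2, 17.7 and 12.3 CPM at 3 h, at 15.5, 19.98, 17.95 and 19.9 CPM at 24 h and at 17.5, 16.7, 20.7 and 14.4 CPM at 72 h. All treated mice were below all control mice. Ccr2 thus had log2 fold changes of -0.71 ± 0.14, -0.44 ± 0.11 and -0.53 ± 0.12 (edgeR adjusted p = 0.00032, 0.0058 and 0.0016). Without control mouse 1 the 24 h value was -0.31 with an edgeR adjusted p of 0.058. With class shares held at their control values the log2 ratios for Ccr2 were -0.85, -0.42 and -0.19 (exact permutation p = 0.029, 0.029 and 0.2). The observed shares gave -0.88, -0.47 and -0.55 (exact permutation p = 0.029, 0.029 and 0.057).

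Within classes, Ccr2 passed in monocyte progenitor-like cells at 3 h and in LMPP-like cells at 24 h, and the difference between these classes was not tested. Among the named classes, Ccr2 was highest in monocyte progenitor-like cells. These were at 82.1, 79.4 and 63.7 CPM in control, at 58.6, 66.8, 52.7 and 42.8 CPM at 3 h and at 60.8, 76.7, 84.2 and 75.2 CPM at 24 h. The fall of 0.50 at 3 h passed (edgeR adjusted p = 0.0088), and the level was higher at 24 h than at 3 h by 0.48 (adjusted p = 0.0089). The 3 h call was lost without control mouse 1 (-0.43, edgeR adjusted p = 0.053) and without 3 h mouse 4 (-0.40, adjusted p = 0.071). It was also lost with thinned cells (-0.32, edgeR adjusted p = 0.55) and with labels made without changed genes (-0.38, adjusted p = 0.13). In LMPP-like cells Ccr2 was at 19.3, 19.2, 25.3 and 8.43 CPM in control and at 9.57, 7.05, 5.90 and 6.72 CPM at 24 h, where 24 h mouse 1 lay above control mouse 4 and the rest below all controls. This was a fall of 1.53 ± 0.25 (edgeR adjusted p = 3.6e-05) that passed in every fit that left out a mouse. With the 2 LMPP-like clusters in equal weights the log2 ratio was -1.22 (exact permutation p = 0.057, 4 mice each, with at least 3 cells in each cluster). It was higher again at 72 h than at 24 h by 0.92 (edgeR adjusted p = 0.036, 3.65% of genes). In cluster 1, 1 of the 2 LMPP-like clusters, it was at 24.8, 25.4 and 35.1 CPM in control and 13.5, 10.4, 8.71 and 9.25 CPM at 24 h (-1.44, edgeR adjusted p = 0.00012, 7.62% of genes). In neutrophil cluster 2 Ccr2 fell by 1.00 at 3 h (edgeR adjusted p = 0.0024, 12.7% of genes).

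**Figure D3:**
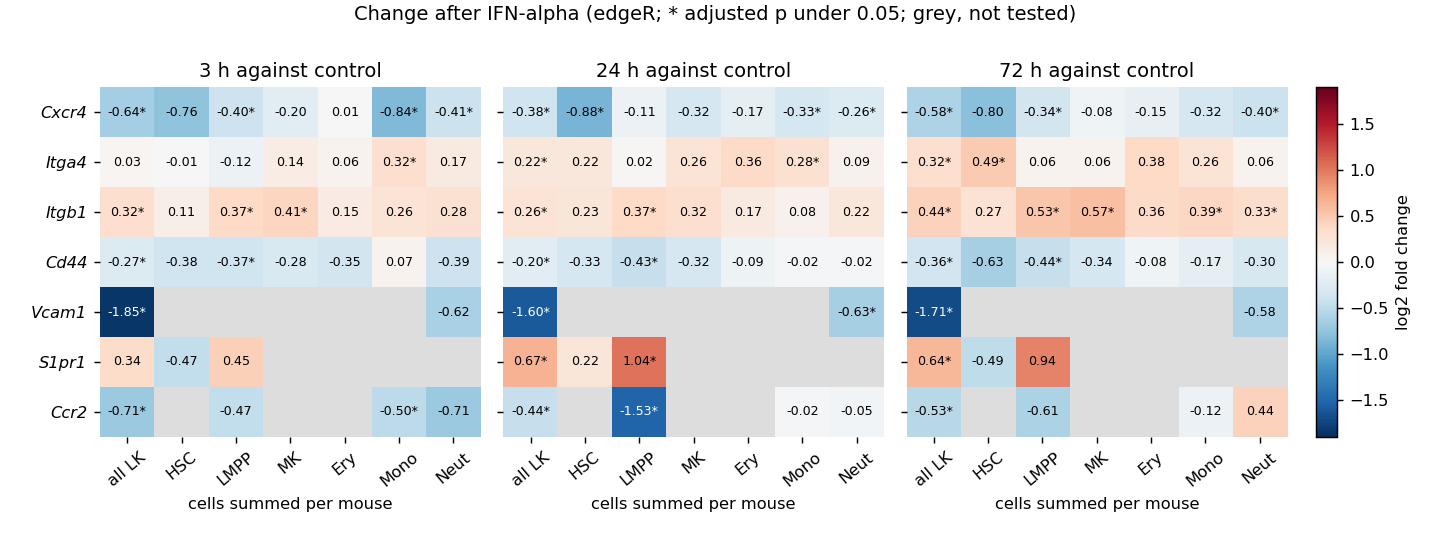
Log2 fold change against control of each member (rows) in all LK cells and in 6 classes (columns) at 3, 24 and 72 h, as colour and number, with a star for an edgeR adjusted p under 0.05 and grey where the gene was not tested. Cxcr4 was lowest in monocyte progenitor-like cells among the values that passed at 3 h (-0.84), and Ccr2 in LMPP-like cells at 24 h (-1.53).

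The count of members that passed differed from class to class. In HSC-like cells 0, 1 and 1 of 5 passed at 3, 24 and 72 h, beside 12.4%, 2.59% and 3.09% of genes. In LMPP-like cells 3, 4 and 3 of 6 passed, beside 20.8%, 8.38% and 7.79%. In MK progenitor-like cells 1, 0 and 1 of 4 passed, beside 10.2%, 3.31% and 3.68%. In erythroid progenitor-like cells none of 4 passed at any time, beside 13.6%, 10.1% and 5.45%. In monocyte progenitor-like cells 3, 2 and 1 of 5 passed, beside 17.4%, 7.25% and 6.63%. In neutrophil progenitor-like cells 1, 2 and 2 of 6 passed, beside 12.9%, 8.67% and 8.99%. A test of whether the change differed between HSC-like cells and each other class (limma on differences within a mouse, 15 mice) passed for 0 of 63 member values, beside 0.43% of all values. Without adjustment 4 had p under 0.05, and the lowest adjusted p was 0.3. The test left out Vcam1 and Ccr2, took S1pr1 against LMPP-like cells only, and did not compare the other classes with each other.

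**Figure D4:**
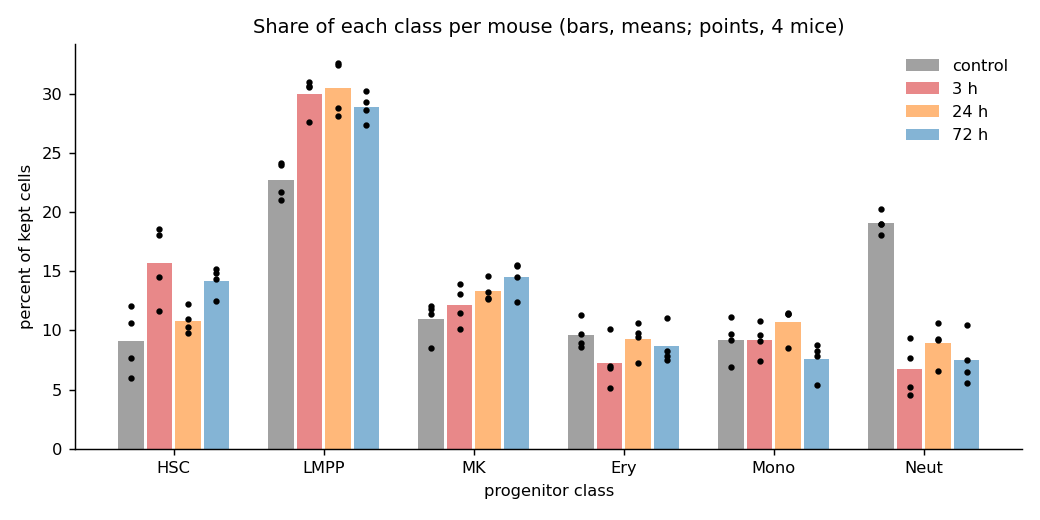
Share of kept cells (vertical axis, percent) in 6 progenitor classes (horizontal axis) in control and at 3, 24 and 72 h, with bars for means and points for 4 mice. Neutrophil progenitor-like cells were 18.1 to 20.3% in control and at most 10.6% in every treated mouse.

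In control mice the members differed in which of the 6 named classes they were highest in, given here as a description of classes formed without these genes. Cells outside these classes, which held 14.2% of all control UMIs and many of those of S1pr1, were not ranked. Vcam1 was highest in neutrophil progenitor-like cells at 21.0 ± 13.7 CPM (SD, n = 4), with HSC-like cells next at 3.74 ± 3.58 (n = 3). Of the named classes, S1pr1 was highest in HSC-like cells at 14.2 ± 6.31 CPM, with erythroid progenitor-like cells next at 3.68 ± 0.33. Ccr2 was highest in monocyte progenitor-like cells at 75.1 ± 9.92 CPM, with neutrophil progenitor-like cells next at 28.2 ± 12.9. For S1pr1 and Ccr2 the first class was apart from the next named class by more than their spread. For Vcam1 it was not, since control mouse 4 was at 3.15 CPM, read from 1 UMI in 11 cells. The first class for Vcam1 stayed the same on leaving out any 1 control mouse. Cxcr4 in neutrophil progenitor-like (84.5 ± 21.4) and monocyte progenitor-like cells (82.0 ± 5.55) did not differ beyond their spread. Itga4 in HSC-like (127 ± 11.3) and erythroid progenitor-like cells (118 ± 14.9), Itgb1 in HSC-like (105 ± 11.8) and MK progenitor-like cells (89.2 ± 16.7), and Cd44 in neutrophil progenitor-like (48.9 ± 9.57) and HSC-like cells (44.1 ± 13.1) did not either. Itga4 in cluster 8, which carried no class name, was above every HSC-like control value, at the control levels given above.

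**Figure D5:**
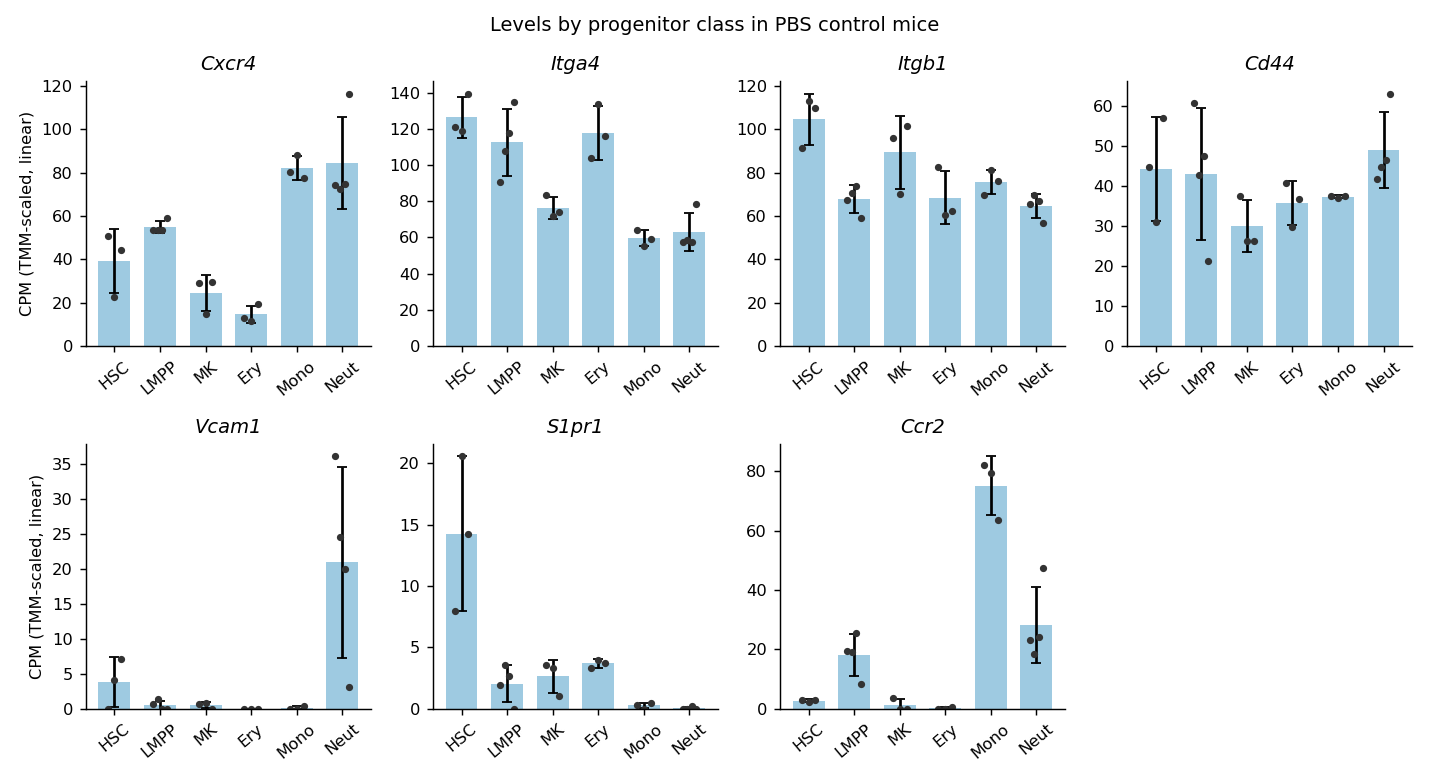
Level of each member (vertical axes, CPM after TMM scaling) in 6 progenitor classes of control mice, 1 point per mouse with at least 10 cells, with mean and SD. Of these 6 classes, S1pr1 was highest in HSC-like cells at 14.2 CPM and Ccr2 in monocyte progenitor-like cells at 75.1 CPM.

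The share of cells with at least 1 UMI was compared after each cell was thinned to 5000 UMIs, since depth per cell differed between libraries. Cxcr4 was found in 21.6 ± 2.49% of control cells and 14.5 ± 1.86% of cells at 3 h (SD, n = 4 mice each, exact permutation p = 0.029, adjusted 0.35). Itgb1 was found in 31.8 ± 0.80% in control and 39.1 ± 2.25% at 72 h, and S1pr1 in 3.02 ± 0.39% and 4.11 ± 0.23% (exact permutation p = 0.029 each, adjusted 0.35). Of 147 such values 12 had an exact p of 0.029, the smallest that 4 mice against 3 or 4 gave here, and none passed after adjustment. For S1pr1 the share in neutrophil progenitor-like cells was 0.17% in control. Cells with both Itga4 and Itgb1, the VLA-4 pair, were 13.2 ± 1.03% in control and 18 ± 1.4% at 72 h (exact permutation p = 0.029). That p was not adjusted, since the pair was outside the 147 values. Whether the pair rose beyond the rise of each gene alone was not tested.

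A list of 81 further homing and adhesion genes was set beside the members. Of 68 tested in all LK cells, 13 rose and 14 fell at 3 h, 18 rose and 10 fell at 24 h, and 15 rose and 12 fell at 72 h. The list's median log2 fold changes were -0.05, 0.05 and 0.04, beside -0.03, 0.00 and 0.02 over all genes. Passing shares over all genes were those given above for all LK cells. Among 13 integrin subunits tested, 1 rose and 4 fell at 3 h, a share near the 38.8% of all genes that passed. The largest fall among them was that of Itga1 (-1.59, edgeR adjusted p = 0.037), the α1 chain, at 0 to 2.33 CPM in the control mice and 0.218 to 1.31 at 3 h. Among 18 selectins, mucins, immunoglobulin-like adhesion molecules and tetraspanins 6 rose and 2 fell at 3 h, beside the same 38.8%. Among chemokine and lipid receptors 1 rose and 1 fell of 9. F11r, which encodes the junctional molecule JAM-A, rose from 6.01 ± 2.43 to 15.7 ± 2.46 CPM (1.66, edgeR adjusted p = 9.8e-09), and Selp, which encodes P-selectin, rose by 0.76 (adjusted p = 9.9e-05). P2ry14, a receptor for UDP-sugars, rose by 0.73 at 3 h (edgeR adjusted p = 3.6e-08) and by 0.50 at 24 h (adjusted p = 5e-06). Sphk1, which makes sphingosine-1-phosphate, fell by 1.399 at 3 h (edgeR adjusted p = 4.3e-05) and by 0.95 at 24 h (adjusted p = 0.00025), and the tetraspanin Cd82 fell by 0.77 at 3 h (adjusted p = 3.3e-05).

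At 24 h F11r was still higher by 0.91 (edgeR adjusted p = 5e-05), and Jam3, another junctional molecule, was higher by 0.81 (adjusted p = 0.026) from 0 to 1.53 CPM in control. Itgam, the αM integrin chain, fell by 0.61 (edgeR adjusted p = 0.0063) and Cx3cr1, the fractalkine receptor, by 0.49 (adjusted p = 0.039). At 72 h Esam (0.58, edgeR adjusted p = 0.0052), Selp (0.57, adjusted p = 0.0009) and the oxysterol receptor Gpr183 (0.63, adjusted p = 0.043) were higher. Ccr1 (-0.85, edgeR adjusted p = 0.024, 0 to 2.84 CPM in control), Itgam (-0.57, adjusted p = 0.012) and S1pr3 (-0.55, adjusted p = 0.027) were lower. Treated and control mice overlapped for F11r, Itgam and Cx3cr1 at 24 h and for Gpr183, Ccr1, Itgam and S1pr3 at 72 h. They were apart for Jam3, Esam and Selp. Gpr183 was at 3.67 to 5.56 CPM in control and 3.59 to 10.1 at 72 h.

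Over the 24 means of 6 classes and 4 groups, the genes whose log2 levels were most like those of Cxcr4 were Cebpa (r = 0.97) and Tyrobp (r = 0.96), among 7314 genes tested in every class. For Itga4 they were Net1 and Add1 (both r = 0.91), for Itgb1 Hmg20b (r = 0.95) and B230219D22Rik (r = 0.91), and for Cd44 Trim11 (r = 0.75) and Egln1 (r = 0.72). These points share libraries and mice, and the correlations are a description. Vcam1, S1pr1 and Ccr2 were not tested in every class.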

How the data were processed

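The deposited values were whole-number UMI counts per gene and cell, which the authors made with Cell Ranger 3.1.0 on mm10, with hashtag calls made in Seurat. Cells with 1 hashtag call, at most 5% mitochondrial UMIs and at least 700 genes were kept. The 7 members, the gene lists and the tests were chosen with earlier results of these data known. Control cells were clustered without the members and the homing list (500 genes, 10 components, 15 neighbours, resolution 0.8), clusters were named from marker lists, and labels were carried to treated cells by mutual nearest neighbours (20). Counts were summed per mouse, for all cells and for classes and clusters with at least 10 cells in the mouse, and tested with edgeR 4.0.16 (quasi-likelihood, TMM scaling, low-count filter, Benjamini-Hochberg over all genes) in R 4.3.3. Differences between classes used limma 3.58.1 (prior count 2). Passing means an adjusted p under 0.05. Levels of single genes are TMM-scaled CPM. Unscaled CPM was used for summed marker, handling and interferon-response genes, for fixed or observed class shares and for clusters in equal weights. Positions and promoters are from GENCODE vM21 and RefSeq, on GRCm38. Beside the members, the text names per time point the 3 homing genes with the largest passing rise and the 3 with the largest fall, and for each member the 2 genes of most similar pattern. Simulated counts took the mean of each gene from the data and 1 assumed spread between mice for all genes, not taken from these data. With the whole-compartment means (11943 genes) 89.7% of genes changed by 1 and 100% of genes changed by 2 on the log2 scale were recovered. For HSC-like cells (8323 genes) these shares were 52.0% and 91.8%. Changes under 1, as for all members but Vcam1 in all LK cells, were not simulated. Alternatives were DESeq2 1.42.0, a likelihood ratio test, library-size scaling, no filter, each time point alone, each mouse left out, a block on hashtag number, Scrublet removal, thinning and other labels. Columns of per-sample values left unmapped numbered 0. Intervals and tests of counts do not cover differences between libraries.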

Additional observations from a re-analysis of the deposited data

Results flagged for a closer look

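In 7 of 109 groups of 4 mice, 1 mouse lay far from the other 3 by Dixon's test, where chance alone marks about 1 in 20 groups. Across all LK cells, Cxcr4 at 24 h was 39.99 CPM in mouse 2 beside 45.97 to 46.72 in the others, and Itgb1 at 3 h was 95.7 CPM in mouse 2 beside 90.8 to 91.2. Control mouse 4, which had 58 kept cells, stood apart in LMPP-like cells for Cxcr4 (59.0 CPM beside 53.3 to 53.6) and in neutrophil progenitor-like cells for Cxcr4 (116 CPM beside 72.3 to 74.7) and Itga4 (78.7 CPM beside 57.6 to 58.6). Itga4 in erythroid progenitor-like cells was 172 CPM in 3 h mouse 4 beside 103 to 113, and Itgb1 in neutrophil progenitor-like cells was 102 CPM in 72 h mouse 2 beside 78.9 to 81.5.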

How the results depend on the processing

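Across all LK cells 5, 7 and 7 members passed at 3, 24 and 72 h, and 5 to 5, 5 to 7 and 7 to 7 when 1 mouse was left out. For the steps 24 h against 3 h and 72 h against 24 h, 2 members passed each, with 2 to 2 and 1 to 2 on leaving out a mouse, 5 and 2 with library size as the only scaling, and 1 and 0 with thinned cells. Over 6 classes 8, 9 and 8 member tests passed, with 4 to 8, 3 to 10 and 5 to 9 on leaving out a mouse. DESeq2 gave 3 at 3 h and 2 at 24 h, each time point alone gave 5 at 3 h, labels without correction between libraries gave 5 at 3 h, thinned cells gave 2 at each time, and the block on hashtag number gave 5 at 3 h and 5 at 24 h. Of all genes 4675, 3405 and 4500 passed, with 4080 to 4772, 2448 to 3526 and 3714 to 4609 on leaving out a mouse, and 2688, 1288 and 1910 with thinned cells. In the homing list 27 genes passed at 3 h and 44 with library size as the only scaling. Shares of cells with an unadjusted exact permutation p under 0.05 numbered 12, and 30 without thinning. The mean level in the highest of the 6 named classes of control mice ranged on leaving out a mouse over 73.8 to 88.6 CPM for Cxcr4, 120 to 130 for Itga4, 100 to 111 for Itgb1, 44.2 to 51.4 for Cd44, 15.9 to 26.9 for Vcam1, 11.1 to 17.4 for S1pr1 and 71.6 to 80.7 for Ccr2. The direction turned for Itga4 at 3 h in all LK cells (-0.12 with library size only, -0.017 to 0.063 on leaving out a mouse, lowest without 3 h mouse 3), for Ccr2 at 24 h in neutrophil progenitor-like cells (0.69 with labels made without changed genes, -0.19 to 0.084 on leaving out a mouse, highest without 24 h mouse 1) and for Vcam1 there (0.15, 0.0091 and 0.33 at 3, 24 and 72 h with clusters in equal weights), and for S1pr1 at 3 h in all LK cells (-0.22 with fixed class shares). The Vcam1 values with clusters in equal weights kept control mouse 4, with 1 Vcam1 UMI in 11 cells, and were not computed without it. The cause of these turns was not tested. A replicate block on the hashtag number was fitted after seeing the data. Deviations of same-numbered mice correlated with r from -0.058 to 0.095 over 24 pairs (median 0.010, none over 0.1). Pairs with different numbers had r from -0.12 to 0.14 over 72 pairs (median -0.0073, 3 over 0.1). Of 16 mice, 7 correlated best with their own number. These values do not settle whether same-numbered mice share more than the number. With the block 5, 7 and 7 members passed in all LK cells, and over classes 5, 5 and 8.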
